A study of Mus musculus with 8 samples.

Results

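The collagen genes of mouse sciatic nerve were described in 4 genotypes. Members were the rows of the deposited expression table whose symbol has the form Col, number, a, number (Col1a1, Col4a2), which gave 44 genes of the 23356 in the table. The ceramide transporter gene Col4a3bp does not have that form and is no collagen. By structure 11 members encode fibrillar collagens, 8 collagens of basement membranes, 6 the beaded type VI collagens and 19 other kinds.

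Sciatic nerves came from F1 mice of C57BL/6 and FVB/N at post natal day 30, and poly A selected RNA was sequenced. The genotypes were wild type (WT), Q215X/+ (the mutant of a model of congenital hypomyelination neuropathy), HA-NRG1 type III/+ (carrying a neuregulin 1 type III transgene), and the double of both alleles, HA-NRG1 type III/+:Q215X/+. Which cells express the transgene is not stated by the labels. Each genotype had 2 libraries, with nothing in the labels to say that a pair came from different animals, so each p-value measures the spread of these libraries alone, which may be technical. The library columns end in 0 or 1, called set 0 and set 1 here. Values are FPKM (fragments scaled to transcript length and to the fragments mapped) as the authors computed them, and each pair of values below gives set 0 first. The column stem taken as HA-NRG1 type III/+ is an abbreviation, read that way because no other stem names that genotype, and the values of both transgenic groups rest on that reading.

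Collagens are trimers of chains wound into a triple helix and are the main structural proteins of the extracellular matrix. In peripheral nerve, fibroblasts and perineurial cells make the fibrils of the endoneurium, perineurium and epineurium, and Schwann cells make a basement membrane with type IV collagen that surrounds each axon unit. Neuregulin 1 type III on axons signals to ERBB receptors on Schwann cells and sets how much myelin they make. The comparisons asked which collagen transcripts differ with the Q215X mutation, with the transgene, and with the transgene in the mutant nerve.

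Total FPKM per library ran from 443733 to 530901, and the depth relative to the WT library of set 0, estimated from steps between low values, from 0.760 to 1.14. Nrg1 stood between 0.164 and 0.498 FPKM. Xist, the RNA of the inactive X chromosome, was at 58.3 to 76.3 FPKM in both WT and both double libraries and in 1 library (set 1) with the transgene alone, and at or under 0.139 FPKM in the other 3 libraries. Sex and genotype therefore cannot be told apart when Q215X/+ is set against WT or against the double. The Q215X/+ library of set 1 held skeletal muscle genes at a summed 747 FPKM, against 2.45 to 60.0 in the others, and adipocyte genes at 753 FPKM, against 206 to 535. In whole nerve, fewer cells of a type and less RNA per cell cannot be told apart.

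Fibrillar transcripts led the family. Type III and type I chains were among the most abundant transcripts of the nerve: Col3a1 had a mean of 1565 FPKM over the 8 libraries and ranked 19 among all genes, Col1a2 had 1203 FPKM and ranked 27, and Col1a1 had 851 FPKM and ranked 42. These 3 genes held 58.1% to 65.4% of the collagen FPKM of each library, and all collagens together held 0.850% to 1.50% of the total FPKM. FPKM is scaled to length, so levels of different genes can be set beside each other, although isoforms were not resolved. A mean of at least 1 FPKM, the level needed to enter the test, was reached by 34 of the 44 collagens.

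**Figure D1:**
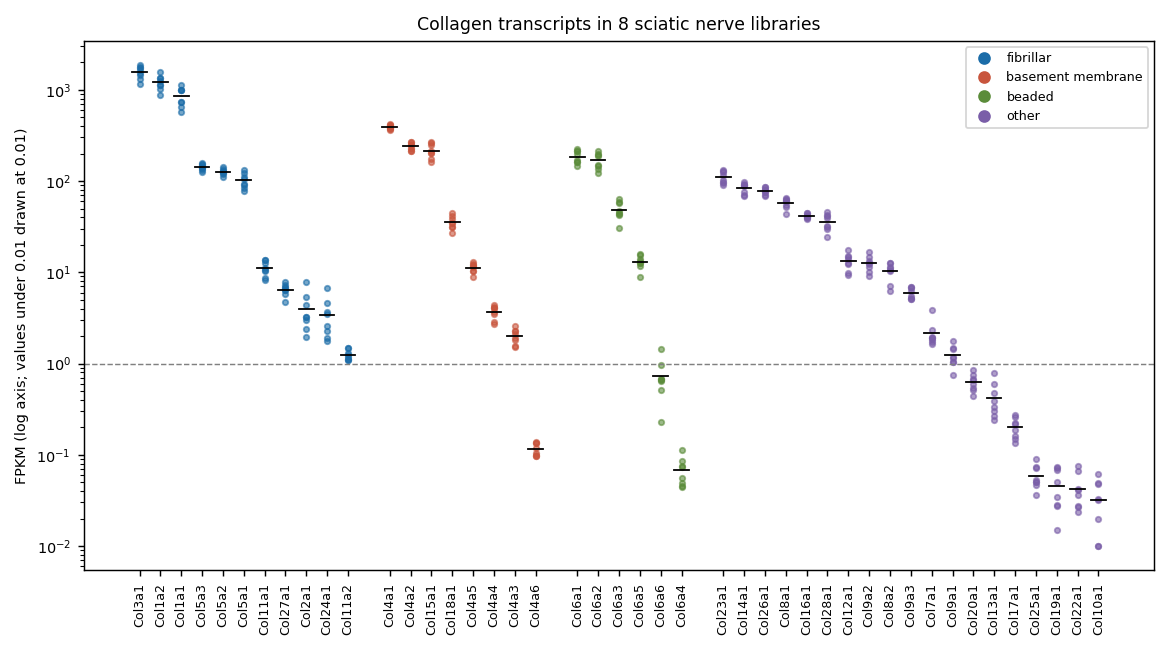
FPKM of the 44 collagens in the 8 libraries on a log axis, grouped by class, with the mean of each gene as a bar and the dashed line at 1 FPKM. Col3a1, Col1a2 and Col1a1 lie at the top with means of 1565, 1203 and 851 FPKM, and 10 collagens have means below the line.

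All 11 fibrillar genes entered the test. Col1a1, the major chain of type I fibrils, stood at 986 and 577 FPKM in the WT libraries, 1007 and 744 in Q215X/+, 1115 and 736 in HA-NRG1 type III/+ and 992 and 651 in the double. Col1a2, its partner chain, stood at 1261 and 872 FPKM in the WT libraries, 1332 and 1120 in Q215X/+, 1549 and 1125 in HA-NRG1 type III/+ and 1337 and 1031 in the double. Col3a1, which forms the thinner fibrils mixed with type I, stood at 1750 and 1145 FPKM in the WT libraries, 1770 and 1547 in Q215X/+, 1879 and 1464 in HA-NRG1 type III/+ and 1649 and 1312 in the double. In all 3 genes the set 0 library was the higher of the pair in every genotype, and the 4 genotypes overlapped. The type V chains, which set the diameter of type I fibrils, followed with means of 143 FPKM for Col5a3, 126 for Col5a2 and 102 for Col5a1. Col5a3, the chain that Schwann cells are known to make, stood at 155 and 141 FPKM in the WT libraries, 138 and 151 in Q215X/+, 127 and 141 in HA-NRG1 type III/+ and 133 and 156 in the double. It was the only type V chain that was not higher in set 0 in every genotype, with set 1 above set 0 in 3 of the 4. The remaining fibrillar genes were low: Col11a1 at a mean of 11.1 FPKM, Col27a1 at 6.47, Col2a1 at 3.92, Col24a1 at 3.38 and Col11a2 at 1.25.

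Of the 8 basement membrane genes, 7 entered the test. Col4a1 and Col4a2 encode the chains of the ubiquitous type IV network. Col4a1 stood at 420 and 383 FPKM in the WT libraries, 407 and 379 in Q215X/+, 395 and 364 in HA-NRG1 type III/+ and 415 and 371 in the double. Col4a2 stood at 267 and 216 FPKM in the WT libraries, 246 and 216 in Q215X/+, 258 and 228 in HA-NRG1 type III/+ and 269 and 222 in the double. These values spread little, and the genotypes overlapped. The 2 genes lie head to head on chromosome 8 with starts 21 bases apart (chr8:11198423-11312826 and chr8:11312805-11449287, mm10), and no source used here says whether counting was by strand. Col4a5 had a mean of 11.2 FPKM, Col4a4 3.68 and Col4a3 2.01, while Col4a6, head to head with Col4a5 on chromosome X, had 0.115 and was not tested.

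The multiplexins, basement membrane collagens with an interrupted helix, were the other members of the class. Col15a1, which in nerve lies on the outer face of the Schwann cell basement membrane, stood at 265 and 163 FPKM in the WT libraries, 216 and 173 in Q215X/+, 260 and 201 in HA-NRG1 type III/+ and 250 and 201 in the double. Col18a1, the precursor of endostatin, stood at 34.7 and 27.0 FPKM in the WT libraries, 31.7 and 31.6 in Q215X/+, 45.2 and 38.2 in HA-NRG1 type III/+ and 41.4 and 34.7 in the double. The libraries of Col15a1 overlapped between genotypes. For Col18a1 the 4 libraries with the transgene were above the 4 without it, though the lowest of the former and the highest of the latter both round to 34.7 FPKM.

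Of the 6 beaded type VI genes, 4 entered the test. Col6a1 stood at 212 and 145 FPKM in the WT libraries, 196 and 160 in Q215X/+, 226 and 172 in HA-NRG1 type III/+ and 211 and 162 in the double. Col6a2 stood at 198 and 124 FPKM in the WT libraries, 188 and 151 in Q215X/+, 212 and 147 in HA-NRG1 type III/+ and 193 and 136 in the double. Col6a3, the long chain that completes the trimer with the other two, stood at 59.6 and 30.8 FPKM in the WT libraries, 46.8 and 43.2 in Q215X/+, 63.2 and 44.1 in HA-NRG1 type III/+ and 57.7 and 42.6 in the double. In these 3 genes set 0 was the higher in each genotype, most in WT. Col6a5 stood at 12.7 and 8.94 FPKM in the WT libraries, 12.7 and 11.7 in Q215X/+, 13.4 and 14.1 in HA-NRG1 type III/+ and 15.5 and 15.8 in the double, and the 4 libraries with the transgene were above the 4 without it. Col6a6 (mean 0.726 FPKM) and Col6a4 (0.0677 FPKM) were below the level for testing.

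Of the 19 other collagens, 12 entered the test. Col23a1, a transmembrane collagen, was the most abundant of them, with a mean of 111 FPKM and the rank 637 among all genes. Col14a1, which binds to the surface of fibrils, stood at 88.9 and 69.1 FPKM in the WT libraries, 90.0 and 97.7 in Q215X/+, 93.8 and 71.1 in HA-NRG1 type III/+ and 91.0 and 76.1 in the double, with its highest value in the Q215X/+ library that held muscle and adipocyte transcripts. Whether tissue around the nerve had a part in that value was not tested. Col26a1 stood at 80.2 and 70.0 FPKM in the WT libraries, 81.3 and 85.5 in Q215X/+, 86.3 and 74.9 in HA-NRG1 type III/+ and 76.5 and 68.6 in the double. Col8a1, a short chain that forms hexagonal networks, stood at 54.8 and 51.8 FPKM in the WT libraries, 61.6 and 43.0 in Q215X/+, 65.3 and 60.7 in HA-NRG1 type III/+ and 63.9 and 60.7 in the double. For Col14a1 and Col26a1 both Q215X/+ values were above both WT values, while the transgenic libraries overlapped with WT. For Col8a1 both HA-NRG1 type III/+ and both double libraries were above the WT libraries, with 1 of the Q215X/+ libraries among them. The 7 members of this class below the level for testing were Col10a1, Col13a1, Col17a1, Col19a1, Col20a1, Col22a1 and Col25a1, with means from 0.0315 FPKM (Col10a1, of hypertrophic cartilage) to 0.630 FPKM (Col20a1). Cartilage and bone markers, checked beside the cartilage collagens of types II, IX and XI, summed to 0.0222 to 0.276 FPKM over 5 genes, with Matn1 listed at 0 in all 8 libraries.

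Ratios were taken for chosen pairs of chains of the same collagen type, and for the partners Col3a1 and Col1a1 of mixed fibrils. Other pairs of the same type, such as Col8a1 and Col8a2, were not among them. Within a library the FPKM ratio of Col4a1 to Col4a2 ran from 1.53 to 1.77, that of Col6a1 to Col6a2 from 1.04 to 1.20, and that of Col4a3 to Col4a4 from 0.521 to 0.586. Col1a1 to Col1a2 ran from 0.631 to 0.782, Col3a1 to Col1a1 from 1.66 to 2.08 and Col5a1 to Col5a2 from 0.688 to 0.959. These 3 ratios differed by set, with no overlap. Col1a1 to Col1a2 was 0.720 to 0.782 in set 0 and 0.631 to 0.665 in set 1. Col3a1 to Col1a1 was 1.66 to 1.78 in set 0 and 1.98 to 2.08 in set 1. Col5a1 to Col5a2 was 0.822 to 0.959 in set 0 and 0.688 to 0.754 in set 1. Col4a5 to Col4a6 ran from 64.1 to 123, which rests on Col4a6 values near 0.1 FPKM. These ratios are descriptions, with no test.

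A difference between the sets ran through the family. Of the 34 tested collagens, 16 (47.1%) were lower in set 1 than in set 0 in all 4 genotypes, against 21.9% of all 12530 genes tested, and 3 (8.82%) were higher in all 4, against 31.5%. The 16 were 7 of 11 fibrillar, 4 of 7 basement membrane, 3 of 4 beaded and 2 of 12 other collagens. The median log2 difference of set 1 minus set 0 was −0.28 for fibrillar, −0.13 for basement membrane, −0.45 for beaded and −0.06 for other collagens, and 0.03 for all genes. The exonic length of the gene moved with it: over 11810 genes with a length in the GENCODE annotation, Spearman's rho between length and set difference was −0.433, a description across genes that share the same 8 libraries. With genes in 5 equal bins of length, the median was 0.21 in the shortest bin and −0.07 in the longest. The 16 collagens in the longest bin had a median of −0.23, and the 12 in the next longest −0.12, against −0.02 for all genes of that bin. Summed fibroblast markers went the other way, at 2439 and 3277 FPKM for WT, 2651 and 2839 in Q215X/+, 2918 and 3891 in HA-NRG1 type III/+ and 3053 and 3870 in the double. Dcn and Lum made up 86.0% to 91.4% of each sum. The other 10 markers summed to 315 and 329 FPKM for WT, 262 and 398 in Q215X/+, 279 and 347 in HA-NRG1 type III/+ and 284 and 332 in the double. Single markers differed in direction: Abca9 and Etv1 were lower in set 1 in every genotype, and Dpt and Clec3b were higher. No label says what the endings stand for. The part of length in the set difference of the collagens was not tested.

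**Figure D2:**
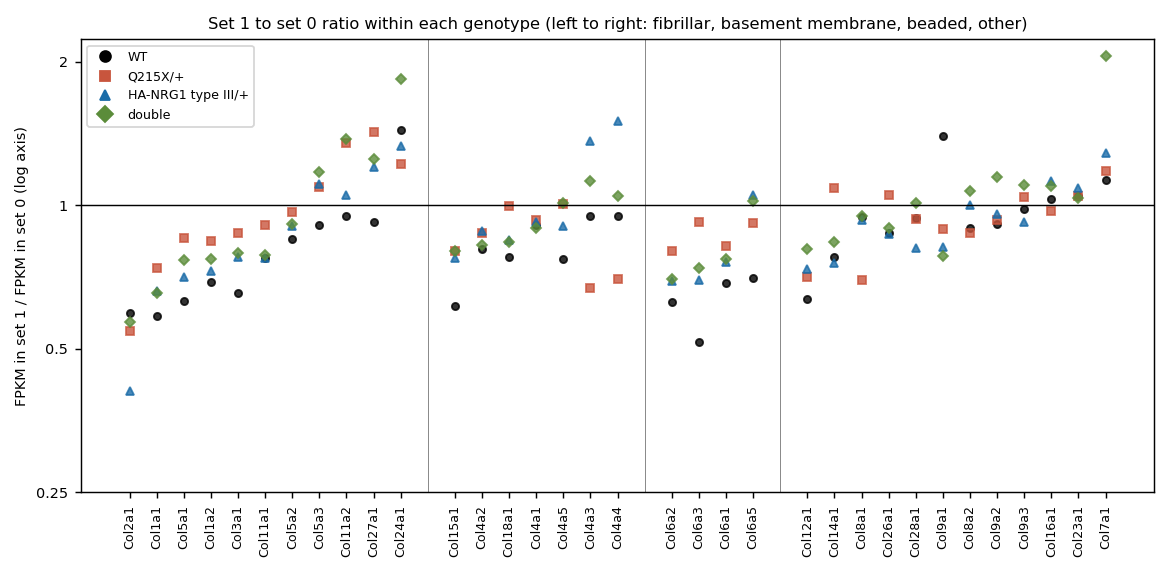
Ratio of FPKM in set 1 to set 0 within each genotype (log axis) for the 34 tested collagens, in the order fibrillar, basement membrane, beaded and other. Symbols mark the genotypes, and 16 collagens lie below 1 in all 4.

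Differences between genotypes were tested with limma on log2(FPKM + 1), a scale that understates the change of low genes, with Benjamini-Hochberg adjustment over all 12530 genes and a threshold of 0.05. Without a term for the set, limma called 0 of the 34 collagens in all 6 comparisons. The set 1 minus set 0 difference correlated across genes in all 6 pairs of genotypes, so the sets were treated as pairs, and a fit in which the set is a replicate block is given beside each result. "Rose" and "fell" below refer to calls of that blocked fit, and none of the collagen calls was made without the block on this scale. With a pseudocount of 0.1 FPKM in place of 1, Col28a1 and Col8a2 were called without it, for the transgene over both backgrounds.

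The transgene over both backgrounds, the mean of its difference in WT and in Q215X/+ nerve, used all 8 libraries. With the block, 8 of the 34 tested collagens (23.5%) were called, against 7.10% of all genes tested. Among them 6 rose, against 3.42% of all genes, and 2 fell, against 3.69%. Those that rose were Col23a1, Col24a1, Col8a2, Col9a2, Col18a1 and Col2a1, and those that fell were Col28a1 and Col11a1. Without the block 0 were called, against 0.990% of all genes, with 10 collagens (29.4%) at an unadjusted p under 0.05, against 11.2% of all genes. The calls were spread over 3 fibrillar, 1 basement membrane, 0 beaded and 4 other collagens, and the 3 most abundant collagens were not among them. The median log2 difference was 0.12 over the collagens, with 27 above 0 and 7 below, and −0.01 over all genes. Libraries with and without the transgene did not overlap for 6 collagens that were higher and 1 that was lower, against 4.88% and 5.20% of all genes.

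Col23a1, the transmembrane collagen (chr11:51289920-51583918, mm10, plus strand), stood at 91.0 and 95.3 FPKM in the WT libraries, 96.9 and 102 in Q215X/+, 116 and 127 in HA-NRG1 type III/+ and 127 and 132 in the double. All 4 libraries with the transgene were above all 4 without it. It rose by 0.38 log2 units (SE 0.04, adjusted p = 0.00531, and 0.0703 without the block).

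Col24a1, a fibrillar collagen known from developing bone (chr3:145292472-145552011, plus strand), stood at 1.78 and 2.56 FPKM in the WT libraries, 1.88 and 2.30 in Q215X/+, 3.46 and 4.60 in HA-NRG1 type III/+ and 3.68 and 6.78 in the double. It was low in every library, and all 4 libraries with the transgene were again above the others. It rose by 0.82 (SE 0.09, adjusted p = 0.00792, and 0.133 without the block).

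Col8a2, the partner of Col8a1 in hexagonal networks (chr4:126286793-126314330, plus strand), stood at 11.5 and 10.3 FPKM in the WT libraries, 7.13 and 6.24 in Q215X/+, 12.7 and 12.8 in HA-NRG1 type III/+ and 10.5 and 11.2 in the double. The Q215X/+ libraries were the lowest, and both double libraries lay within the range of WT. It rose by 0.42 with the transgene (SE 0.06, adjusted p = 0.0118, and 0.0541 without the block).

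Col28a1, which in nerve is known from Schwann cells around nodes and non-myelinated fibres (chr6:7997808-8192617, minus strand), stood at 41.3 and 38.9 FPKM in the WT libraries, 45.5 and 42.6 in Q215X/+, 29.8 and 24.3 in HA-NRG1 type III/+ and 31.5 and 31.9 in the double. All 4 libraries with the transgene were below the 4 without it. It fell by 0.51 (SE 0.06, adjusted p = 0.00693, and 0.0503 without the block).

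The 250 bases before the start of these 4 genes are shown because they had the smallest adjusted p of the 8 calls. They were read from a RefSeq promoter table (GRCm38.p6), which held 35 of the 44 collagens. Capitals mark matches on either strand to CCAAT, the GC box core GGGCGG, the TATA box motif TATAAA, or the core of AP-1 sites, written TGANTCA.
Col23a1: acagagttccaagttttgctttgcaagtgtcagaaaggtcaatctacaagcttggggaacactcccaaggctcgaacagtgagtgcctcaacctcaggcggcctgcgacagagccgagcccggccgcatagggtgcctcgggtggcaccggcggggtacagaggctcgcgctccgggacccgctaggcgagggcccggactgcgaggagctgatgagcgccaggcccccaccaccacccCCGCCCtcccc
Col24a1: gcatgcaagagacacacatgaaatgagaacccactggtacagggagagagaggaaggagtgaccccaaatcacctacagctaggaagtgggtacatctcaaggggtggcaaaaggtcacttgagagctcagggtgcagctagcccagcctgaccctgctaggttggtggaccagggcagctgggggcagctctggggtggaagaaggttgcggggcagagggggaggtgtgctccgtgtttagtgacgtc
Col8a2: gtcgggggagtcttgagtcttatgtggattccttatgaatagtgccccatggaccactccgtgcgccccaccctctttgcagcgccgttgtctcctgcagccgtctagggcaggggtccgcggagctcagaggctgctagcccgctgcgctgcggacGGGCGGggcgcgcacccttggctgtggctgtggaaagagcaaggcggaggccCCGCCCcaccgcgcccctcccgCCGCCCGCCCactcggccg
Col28a1: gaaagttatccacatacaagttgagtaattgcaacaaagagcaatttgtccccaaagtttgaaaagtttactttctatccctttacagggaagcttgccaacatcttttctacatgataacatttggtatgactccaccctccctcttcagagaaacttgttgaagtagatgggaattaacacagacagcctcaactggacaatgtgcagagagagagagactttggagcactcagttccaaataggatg
They lie at chr11:51289670-51289919 (plus), chr3:145292222-145292471 (plus), chr4:126286544-126286793 (plus) and chr6:8192618-8192867 (minus), each 5′ to 3′ on the strand of the gene. The window of Col23a1 held 1 match and that of Col8a2 4 matches to GGGCGG, which 33.0% of 32536 promoter windows of this length held. The windows of Col24a1 and Col28a1 held none of the 4 motifs. CCAAT occurred in 33.8% of all windows, TATAAA in 12.3% and TGANTCA in 6.73%. G and C made up 66.0% of the window of Col23a1, 58.0% of that of Col24a1, 70.0% of that of Col8a2 and 40.4% of that of Col28a1. A match is a string of letters and not a measured binding site.

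Col9a2, a chain of type IX collagen on the surface of type II fibrils (chr4:121039385-121055322), stood at 9.98 and 9.14 FPKM in the WT libraries, 12.3 and 11.5 in Q215X/+, 13.2 and 12.6 in HA-NRG1 type III/+ and 14.7 and 16.9 in the double. WT was lowest and the double highest. It rose by 0.39 with the transgene (SE 0.06, adjusted p = 0.0175, and 0.0713 without the block). Col18a1, given above, rose by 0.34 (SE 0.06, adjusted p = 0.0264, and 0.286 without the block).

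Col2a1, the main collagen of cartilage (chr15:97975602-98004695), stood at 3.24 and 1.93 FPKM in the WT libraries, 4.38 and 2.39 in Q215X/+, 7.89 and 3.22 in HA-NRG1 type III/+ and 5.29 and 3.02 in the double. Set 0 was higher in each genotype, and the libraries of the genotypes overlapped unless compared within a set. It rose by 0.52 (SE 0.09, adjusted p = 0.0302, and 0.671 without the block). Col11a1, a chain of minor cartilage fibrils (chr3:114030540-114220718), stood at 13.6 and 10.6 FPKM in the WT libraries, 13.7 and 12.5 in Q215X/+, 11.2 and 8.73 in HA-NRG1 type III/+ and 10.4 and 8.22 in the double. Within each set the double and HA-NRG1 type III/+ were below WT and Q215X/+. It fell by 0.36 (SE 0.05, adjusted p = 0.0133, and 0.339 without the block).

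**Figure D3:**
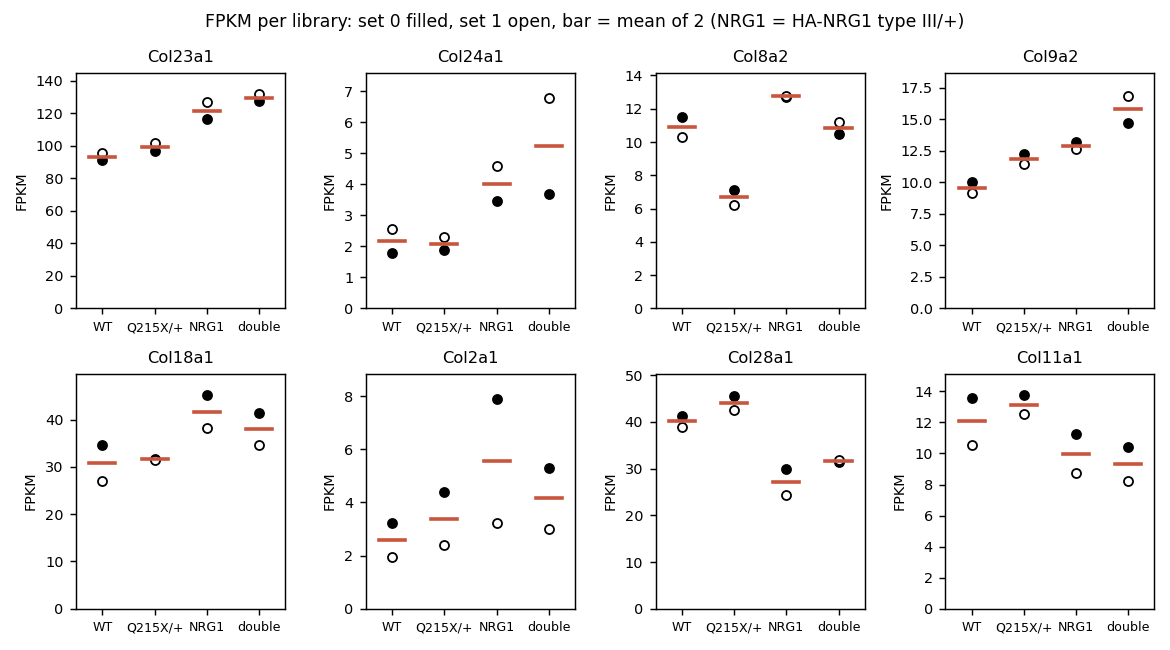
FPKM of the 8 collagens called for the transgene over both backgrounds in the fit with the set as a block, by genotype (filled, set 0; open, set 1; bar, mean of 2 libraries; each axis starts at 0). Col23a1, Col24a1, Col9a2 and Col18a1 are higher and Col28a1 is lower in all 4 transgenic libraries, while Col8a2, Col2a1 and Col11a1 overlap.

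These calls rest on few libraries. Without the double library of set 0 the adjusted p of Col23a1 and of Col28a1 was 0.0521, and without the WT library of set 1 that of Col24a1 was 0.0514, and these calls held without any other single library. Col8a2 stayed called only without the WT library of set 0 or either Q215X/+ library (adjusted p up to 0.0712 without the others). Col9a2 stayed called only without the set 0 library of Q215X/+ or of the double (up to 0.0917), Col11a1 and Col18a1 only without either Q215X/+ library (up to 0.0941 and 0.150), and Col2a1 only without set 1 of the transgene alone (up to 0.157). The count of 8 fell to 2 without the WT library of set 1 or the double library of set 0, and was 3 to 8 without each of the others. With the Xist level as a term beside the block 5 were called: Col23a1, Col24a1, Col28a1, Col2a1 and Col8a2. The log2 differences of the other 3 were close to those without the term: −0.34 for Col11a1, 0.35 for Col18a1 and 0.40 for Col9a2. Their adjusted p ran from 0.0526 to 0.0793. Only the HA-NRG1 type III/+ pair differed widely in Xist, so the term rests mostly on that pair and cannot decide the part of sex. On the mutant background, which is part of this mean, sex and transgene cannot be told apart.

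Among the most abundant collagens, 7 were examined for the size of difference that their intervals allow. The log2 difference over both backgrounds was 0.08 for Col1a1 (95% interval −0.08 to 0.24 with the block), 0.03 for Col3a1 (−0.16 to 0.22), −0.04 for Col4a1 (−0.14 to 0.06) and 0.05 for Col4a2 (−0.05 to 0.16). Col6a1 had 0.11 (−0.01 to 0.24). Col1a2 had 0.14 (−0.02 to 0.29) and Col15a1 0.18 (−0.002 to 0.36). None of the 7 was called, with adjusted p from 0.219 to 0.858, and the upper bounds leave room for a rise of up to 0.36 log2 units. For Col1a1, Col1a2 and Col3a1 the value is a mean of opposite signs: 0.26, 0.33 and 0.23 in WT nerve and −0.11, −0.06 and −0.17 in mutant nerve. Col6a5 had 0.34 (SE 0.09) and the fibril-bound Col12a1 0.26 (SE 0.06), with adjusted p = 0.086 and 0.0523.

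On the WT background, HA-NRG1 type III/+ against WT, the block called 3 collagens (8.82%) against 2.11% of all genes (1.05% higher and 1.06% lower), and without it 0 against 0.0638%. Col23a1 rose by 0.38 (adjusted p = 0.0336), Col2a1 rose by 0.80 (adjusted p = 0.0474), and Col28a1 fell by 0.56 (adjusted p = 0.035). The FPKM means differed 1.31-fold for Col23a1 and 2.15-fold for Col2a1, and the ratio was 0.675 for Col28a1. Of the 34, 28 were above 0, with a median of 0.17, and with the block the unadjusted p of 15 was under 0.05 (44.1%, against 17.5% of all genes). Col1a2 had 0.33 (SE 0.09, adjusted p = 0.148) and Col1a1 0.26 (SE 0.09, adjusted p = 0.228). The calls of Col2a1 and Col28a1 ended without any single library (adjusted p from 0.0539), and that of Col23a1 without any library except those of Q215X/+ (adjusted p up to 0.185), and 0 were called with the Xist term beside the block. With that term Col23a1 had 0.41 and Col28a1 −0.67, neither of them smaller than before, and Col2a1 had 0.56 (adjusted p from 0.0927 to 0.16). Here too the term rests mostly on the HA-NRG1 type III/+ pair and cannot decide the part of sex.

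On the mutant background, the double against Q215X/+, the block called 4 collagens (11.8%) against 1.72% of all genes (0.854% higher and 0.870% lower), and without it 0 against 0.0399%. Col8a2 rose by 0.62 (adjusted p = 0.0276), Col23a1 rose by 0.38 (adjusted p = 0.0311), Col24a1 rose by 0.97 (adjusted p = 0.0331), and Col11a1 fell by 0.46 (adjusted p = 0.0426). The FPKM means differed 1.62-fold for Col8a2 and 2.50-fold for Col24a1. Col28a1 had −0.46 (SE 0.08, adjusted p = 0.051). The collagens had a median of 0.14, with 22 above 0. Fibrillar members had a median of −0.0035, with 5 of 11 above 0, and basement membrane members 0.21, with 6 of 7 above 0. Each of the 4 calls ended without any single library (adjusted p 0.0563 to 0.356), and with the Xist term beside the block, which here follows the groups, none was called (adjusted p from 0.608), with 0.54 for Col8a2, 0.32 for Col23a1, 1.04 for Col24a1 and −0.38 for Col11a1.

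The double against WT, which shares its libraries with the comparisons above, gave 3 calls with the block (8.82%), all higher, against 2.39% of all genes (1.15% higher), and without it 0 against 0.112%. Col9a2 rose by 0.67 (adjusted p = 0.0248), Col23a1 rose by 0.47 (adjusted p = 0.0163), and Col24a1 rose by 0.94 (adjusted p = 0.03). For Col9a2 the FPKM mean of the double was 1.65 times that of WT. The call of Col23a1 ended without either WT or either double library (adjusted p up to 0.235). Those of Col24a1 and Col9a2 ended without any library except those of Q215X/+ (up to 0.202 and 0.175). With the Xist term beside the block only Col23a1 was called, while Col24a1 had 0.94 (adjusted p = 0.062) and Col9a2 0.67 (adjusted p = 0.0525).

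The transgene comparisons on the WT and the mutant background share no library. Of the 34 collagens, 24 (70.6%) had the same sign in both, 20 above and 4 below 0, against 66.4% of all genes. Pearson's r between the log2 differences of the 2 backgrounds was 0.614 across the 34 collagens and 0.218 across all genes, given as descriptions, since genes of 1 library are not independent. Col23a1 had nearly the same difference in both, 0.38 and 0.38, as did Col9a2, 0.40 and 0.38. Col28a1 had −0.56 and −0.46. Col8a2 had 0.21 in WT and 0.62 in the mutant nerve, and Col2a1 0.80 and 0.23.

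**Figure D4:**
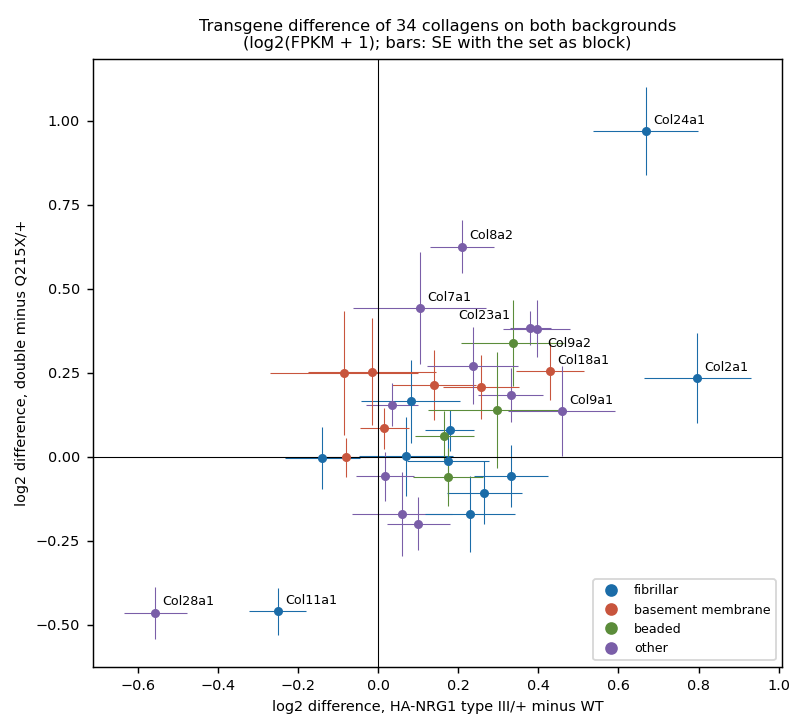
Log2 difference of the 34 tested collagens with the transgene in WT nerve (x axis) and in Q215X/+ nerve (y axis), with SE from the fit with the set as a block and colours for the classes. Col24a1, Col23a1 and Col9a2 lie in the upper right, and Col28a1 and Col11a1 in the lower left.

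The interaction, the transgene difference in mutant nerve minus that in WT nerve, gave 0 calls among collagens with or without the block, against 0.00798% of all genes in both fits. With the block 6 collagens (17.6%) had an unadjusted p under 0.05, against 4.78% of all genes, and without it 1, against 1.11%. Type I and III chains were among the 6: Col1a1 had −0.37 (95% interval −0.69 to −0.05), Col1a2 −0.39 (−0.70 to −0.07) and Col3a1 −0.40 (−0.79 to −0.01). Col2a1 had −0.56 and Col26a1 −0.30, while Col8a2 had 0.42. All 6 had an adjusted p of 0.965 with the block, so no collagen was shown to respond differently to the transgene in the 2 backgrounds. The double against Q215X/+, where sex and genotype cannot be told apart, is part of the interaction. So is the Q215X/+ library that held muscle transcripts, and its part in these differences was not tested.

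Q215X/+ against WT gave 0 calls among collagens with or without the block, against 0.00798% of all genes in both fits. Xist was high in both WT and near 0 in both Q215X/+ libraries, so mutation and sex cannot be told apart here. The Q215X/+ library of set 1, which held muscle transcripts at 747 FPKM, is in this comparison. Fits were also run without that library, but they leave the Q215X/+ group with no replicate. The part of that library in these differences was therefore not tested. In each fit 3 collagens (8.82%) had an unadjusted p under 0.05, against 2.04% of all genes without the block and 7.41% with it. Col8a2 had the strongest difference, −0.63 (SE 0.08, adjusted p = 0.2 with the block and 0.695 without), and both Q215X/+ values, 7.13 and 6.24 FPKM, were below both WT values, 11.5 and 10.3. The type IX chains Col9a3 and Col9a2 had 0.34 (SE 0.07, adjusted p = 0.424) and 0.29 (SE 0.08, adjusted p = 0.579), with higher values in both Q215X/+ libraries. The collagens had a median of 0.05, with 22 above 0 and 12 below, and all genes −0.01. Col1a1 had 0.20 (95% interval −0.03 to 0.43 with the block), Col3a1 0.23 (−0.05 to 0.50), Col4a1 −0.03 (−0.17 to 0.11) and Col6a1 0.01 (−0.16 to 0.19). For the first 2, differences of up to 0.43 and 0.50 log2 units lie within the interval. Most of these 2 differences came from set 1, with its muscle-holding Q215X/+ library. Col1a1 had 0.03 in set 0 and 0.37 in set 1, and Col3a1 had 0.02 and 0.43.

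The enzymes that fold, modify and cross-link collagens were read from a list of 37 genes, of which 35 entered the test. With the transgene over both backgrounds the block called 3 rises and 1 fall among them, against 7.10% of all genes, and without the block 1 rise, against 0.990%. The calls were 3 of 15 modifying enzymes, 1 of 6 cross-linking genes, 0 of 8 chaperone and export genes and 0 of 6 tested propeptide processing genes. The collagen chaperone Serpinh1 was not called and stood at 377 and 359 FPKM in the WT libraries, 383 and 441 in Q215X/+, 416 and 329 in HA-NRG1 type III/+ and 383 and 344 in the double.

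Leprel1, now named P3h2, encodes prolyl 3-hydroxylase 2, which acts on type IV and other collagens (chr16:25959288-26105784, minus strand). It stood at 12.6 and 13.1 FPKM in the WT libraries, 15.5 and 18.0 in Q215X/+, 23.6 and 26.0 in HA-NRG1 type III/+ and 36.3 and 32.8 in the double. WT was lowest, Q215X/+ next, then HA-NRG1 type III/+ and the double, with no overlap between the 4 groups. It rose by 0.95 over both backgrounds (SE 0.06, adjusted p = 0.00244), a call that held without the block (adjusted p = 0.00858) and without any single library in the blocked fit. In the double against WT it rose by 1.36, called with the block (adjusted p = 0.00466) and without it (adjusted p = 0.0157), and the blocked call ended without either WT library (adjusted p up to 0.058). With the block it also rose by 0.90 in HA-NRG1 type III/+ against WT (adjusted p = 0.0172) and by 1.00 in the double against Q215X/+ (adjusted p = 0.0134), and these calls held only without either library of the genotype outside the comparison, Q215X/+ for the first, or for the second HA-NRG1 type III/+ (up to 0.152 and 0.129 without the others).

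P4ha3 and P4ha1 encode catalytic subunits of prolyl 4-hydroxylase, which stabilises the triple helix, and moved in opposite directions. P4ha3 stood at 2.67 and 2.25 FPKM in the WT libraries, 2.29 and 2.17 in Q215X/+, 4.20 and 3.52 in HA-NRG1 type III/+ and 3.49 and 3.10 in the double. It rose by 0.45 (SE 0.05, adjusted p = 0.009 with the block and 0.0761 without), and the call ended without either double library (up to 0.0694). P4ha1 stood at 58.0 and 57.7 FPKM in the WT libraries, 55.4 and 64.9 in Q215X/+, 49.5 and 45.9 in HA-NRG1 type III/+ and 43.3 and 45.7 in the double. It fell by 0.35 (SE 0.06, adjusted p = 0.0226, and 0.104 without the block), with every transgenic library below every other. Lox, lysyl oxidase, which starts cross-linking of fibrils, stood at 239 and 265 FPKM in the WT libraries, 291 and 247 in Q215X/+, 353 and 346 in HA-NRG1 type III/+ and 359 and 317 in the double. It rose by 0.40 (SE 0.07, adjusted p = 0.0265, and 0.149 without the block). P4ha1 stayed called only without either Q215X/+ library or set 0 of the transgene alone (adjusted p up to 0.135 without the others), and Lox only without the WT library of set 1 or the Q215X/+ library of set 0 (up to 0.153). In single comparisons the block added P4ha3 in HA-NRG1 type III/+ against WT (0.49, adjusted p = 0.0433, up to 0.229 without any library except those of Q215X/+). It also added Tll1, a propeptide protease, in the double against WT (−0.39, adjusted p = 0.045), at 13.1 and 10.9 FPKM in the WT libraries, 10.7 and 10.4 in Q215X/+, 11.8 and 10.3 in HA-NRG1 type III/+ and 9.60 and 8.18 in the double. That call too ended without any library except those of Q215X/+ (adjusted p up to 0.34). With the Xist term beside the block, P4ha3 stayed called over both backgrounds (adjusted p = 0.0342), while P4ha1 (0.063) and Lox (0.0948) did not. The single comparisons of P4ha3 (0.216) and Tll1 (0.0822) were not called with that term.

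**Figure D5:**
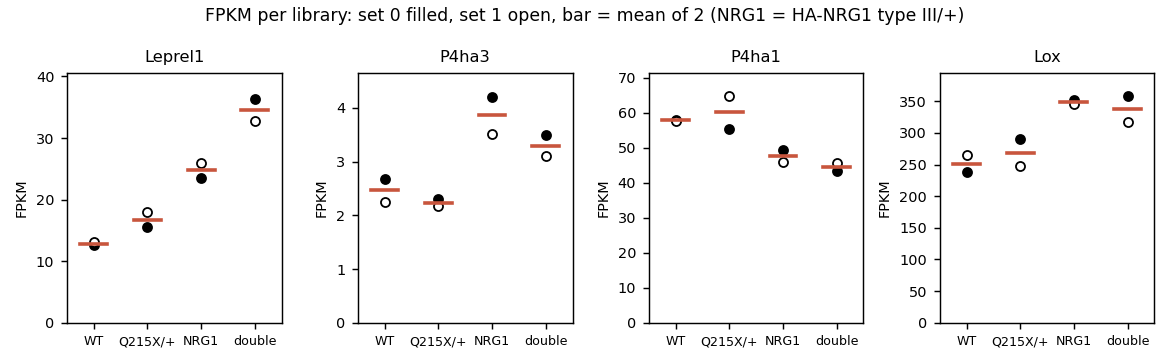
FPKM of Leprel1, P4ha3, P4ha1 and Lox by genotype (filled, set 0; open, set 1; bar, mean of 2 libraries; each axis starts at 0). Leprel1 stands at 12.6 and 13.1 FPKM in WT and 36.3 and 32.8 in the double, and P4ha1 is lower in all 4 transgenic libraries.

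Of 12 collagen receptor genes 10 entered the test, and with the block 1 fell and 0 rose for the transgene over both backgrounds, against 7.10% of all genes called. The list as a whole lay the other way, with 8 of 10 above 0 and a median of 0.13. Before adjustment the blocked fit gave p under 0.05 for 5 that were above 0 and 1 below. The 5 were Itga2 (0.25, adjusted p = 0.0569), Lair1 (0.29, 0.0914), Ddr1 (0.13, 0.132), Ddr2 (0.13, 0.159) and Mrc2 (0.18, 0.178). Gpr56, now named Adgrg1, an adhesion receptor that binds type III collagen, stood at 25.1 and 18.8 FPKM in the WT libraries, 22.7 and 18.4 in Q215X/+, 18.3 and 15.1 in HA-NRG1 type III/+ and 17.4 and 14.2 in the double. Within each set the libraries with the transgene were below those without it. It fell by 0.36 (SE 0.04, adjusted p = 0.00761, and 0.361 without the block), and the call ended without either double library (up to 0.0669). It was also called with the block in HA-NRG1 type III/+ against WT (adjusted p = 0.0435), the double against Q215X/+ (0.0449) and the double against WT (0.0252), calls that ended without any WT or double library, among others (up to 0.233, 0.407 and 0.286). With the Xist term beside the block Gpr56 stayed called over both backgrounds (adjusted p = 0.0303). It was called in none of the single comparisons with that term (0.216, 0.618 and 0.0525 in that order). The other tested integrin and discoidin domain receptor genes of the list were not called.

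Markers of some cell types were called for the transgene over both backgrounds in the blocked fit. Without the block 0 markers of the fibroblast, macrophage, non-myelinating Schwann cell and endothelial lists were called, against 0.990% of all genes. Of the 3 red blood cell markers 1 was called without it. Results without single libraries are not given for these markers. Of 12 fibroblast markers 11 were tested, and with the block 2 rose (Lum and Abca9) and 0 fell, against 3.42% and 3.69% of all genes. The list did not move one way: 6 of the 11 were above 0 in both sets and 4 below, namely Pi16 (−0.28), Sfrp2 (−0.40), Dpt (−0.21) and Clec3b (−0.08), with adjusted p from 0.37 to 0.62. Lum, a proteoglycan of collagen fibrils, stood at 398 and 418 FPKM in the WT libraries, 408 and 410 in Q215X/+, 577 and 615 in HA-NRG1 type III/+ and 568 and 649 in the double, and rose by 0.56 (SE 0.05, adjusted p = 0.00462). Summed fibroblast markers were 2439 to 3277 FPKM in the groups without the transgene and 2918 to 3891 FPKM with it, but Dcn and Lum made up 86.0% to 91.4% of each sum. The other 10 markers summed to 262 to 398 FPKM without and 279 to 347 FPKM with the transgene. Of 5 macrophage markers 1 rose (Cx3cr1, 0.78, adjusted p = 0.00531), with sums of 78.9 to 108 FPKM without and 103 to 121 FPKM with the transgene. Non-myelinating Schwann cells are, beside those around nodes, a known site of Col28a1. Of 5 markers of non-myelinating Schwann cells 1 rose (Ngfr, 0.41, adjusted p = 0.0106) and 2 fell (Scn7a by 0.49, adjusted p = 0.00591, and Cdh2 by 0.43, adjusted p = 0.0232). The 5 summed to 136 to 153 FPKM without and 115 to 124 FPKM with the transgene. Of 5 endothelial markers 1 fell (Kdr by 0.25, adjusted p = 0.028) and 4 were above 0, with sums of 97.6 to 153 FPKM without and 120 to 158 FPKM with the transgene. The 5 skeletal muscle markers were all below 0 in both sets (median −2.43) with 0 calls, and summed to 2.45 to 747 FPKM without and 3.46 to 9.04 FPKM with the transgene. The 6 perineurial markers gave 0 calls. Red blood cell markers fell in 3 of 3 genes with the block, with sums of 228 to 1271 FPKM without and 31.3 to 177 FPKM with the transgene. The part of these cell types in the collagen differences was not tested.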

How the data were processed

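The deposited table gives FPKM per gene and library, as the authors computed it. The submitters' processing notes name TopHat2 2.0.9, Cufflinks 2.2.0 and mm10 without their roles. No source used here gives the gene annotation, strand handling or filters. Data lines have 1 empty field more than the header, after the symbol, and the 8 column names were matched to the 8 values by order. FPKM carries no counts, so absolute depth is unknown.

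limma 3.58.1 (R 4.3.3) was fitted to log2(FPKM + 1) of the 12530 genes whose mean reached 1 FPKM: 4 group means over 8 libraries (4 residual degrees of freedom), eBayes with a trend, and Benjamini-Hochberg adjustment at 0.05. The alternative with the set as a replicate block left 3. The sets were treated as paired from the data, not a label: set differences correlated across genes at 0.118 to 0.304 in all 6 pairs of genotypes. With 2 libraries against 2, the smallest two-sided p of an exact permutation test is 0.333. That limit does not hold for the transgene over both backgrounds, which used all 8 libraries. No permutation test was run for any comparison. The fit was tested on simulated data. Alternatives covered the pseudocount, the filter, scaling, an Xist term, the block and leaving out each library.

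The members and lists were chosen with earlier results of these data known. Values in every library are given for collagens called in any comparison with or without the block, the 4 highest of each class, and fixed collagens of types I, III, IV, VI, XV, XVIII and XXVIII; of the enzyme and receptor lists, for called members. Serpinh1, Lum, Col9a3, Col12a1, the receptors that were not called and the markers with values were named after their values were seen. Promoters were read from the RefSeq table and coordinates from GENCODE on mm10. Some marker genes are not reported here.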

Additional observations from a re-analysis of the deposited data

How the results depend on the processing

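The count of collagens called by limma was 0 in all 6 comparisons without the block. It stayed at 0 with no filter, a filter at 5 FPKM, median-ratio scaling, quantile normalization, the Xist term alone, or without any single library (0 to 0). With a pseudocount of 0.1 FPKM, 2 were called for the transgene over both backgrounds, Col28a1 and Col8a2. The replicate block gave 3 calls in HA-NRG1 type III/+ against WT, 4 in the double against Q215X/+, 3 in the double against WT and 8 for the transgene over both backgrounds. In that order, the block with median-ratio scaling gave 3, 4, 3 and 9, and the block with a pseudocount of 0.1 FPKM gave 4, 5, 3 and 9. The block with the Xist term gave 0, 0, 1 and 5. The block without each library in turn gave 0 to 2, 0 to 0, 0 to 3 and 2 to 8. Q215X/+ against WT and the interaction gave 0 collagens under every setting run. Over all genes the block moved the counts from 8 to 265, 5 to 216, 14 to 299 and 124 to 890. Scaling moved the median of all genes by under 0.1 log2 units. The blocks combined with scaling, with the pseudocount and with each library left out were added after the data were seen. The block left 3 residual degrees of freedom, so with 2 libraries a group each call depends on the estimate of the spread shared over genes. FPKM holds no depth, so the precision of low members such as Col24a1 is unknown.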
